A study of Mus musculus with 48 samples.

Results

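The SWI/SNF (BAF) chromatin remodelling complex is described here through 10 of its subunit genes in mouse embryonic stem cells: Smarca4, which encodes the ATPase BRG1, Smarca2, Smarcb1, Smarcc1, Smarcd1, Smarce1, Arid1a, Actl6a, Dpf2 and Bcl7b. They were taken by symbol from the deposited table of nascent RNA counts, where they are 10 of 55376 gene rows. Of the 10, 9 belonged to the 8017 expressed genes on which the comparisons were made, and Smarca2 did not. SWI/SNF uses the energy of ATP to slide and evict nucleosomes, and thereby keeps promoters and enhancers accessible. Each complex carries a single ATPase, BRG1 or BRM, held by a core of scaffold subunits, and many of its subunits come from families of paralogs. In embryonic stem cells the complex is built around BRG1 and is needed for self-renewal.

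Every library came from the embryonic stem cell line TCF2.2 in 2i, a serum-free medium that holds cells in the naive state. The labels give its strain as C57BL/6. All cells received 500 µM 4-thiouridine for 5 min so that RNA made in that time could be captured. Each of 4 groups held 2 libraries. For the first pair of groups, cells were given BRM014, an inhibitor of the ATPase activity of BRG1 and BRM, at 10 µM for 3 h, or DMSO as its control. For the second pair, a lentivirus delivered either an shRNA directed at Chd4, which encodes the NuRD ATPase, or a scrambled shRNA, with 1.5 µg/mL puromycin for 24 h. BRM014 acts on the BRG1 and BRM proteins and does not remove the genes, so a change in any of the 10 genes is a change in new transcripts and not a measure of the inhibition.

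Gene counts summed to between 6982354 and 17128981 per library, lowest in the libraries labelled Chd4 shRNA. Background was read from counts on 1434 receptor genes of the olfactory and vomeronasal families, which are not known to be active in stem cells. They amounted to between 11.9% and 13.6% of gene counts in the libraries labelled Chd4 shRNA when scaled to all exons, against 1.45% to 2.38% in the other 6. All 10 embryonic stem cell markers examined were in the expressed set, and 0 of 8 fibroblast or feeder, 0 of 6 primitive endoderm, 1 of 6 trophoblast (Tfap2c) and 1 of 6 neural (Tubb3) markers were. The summed stem cell markers were lower in the libraries labelled Chd4 shRNA (15.7 to 16.04 counts per 10000) than in the scrambled ones (21.6 to 24.3). The summed fibroblast markers went the other way (0.709 to 0.844 against 0.0832 to 0.112), as did the other 3 lists. The median marker was at 1.08-fold of the background in the fibroblast list, 0.904-fold in the endoderm, 1.04-fold in the trophoblast and 2.28-fold in the neural list, and the background level itself was 0.180 per kb with the scrambled shRNA and 1.14 in the libraries labelled Chd4 shRNA. The part of these lists in the results below was not tested. In bulk RNA, fewer cells of a type and less RNA per cell cannot be told apart. Chd4 itself was counted 806 and 618 times with the scrambled shRNA and 730 and 760 times with its own, which is 0.59 ± 0.16 (SE) higher on the log2 scale relative to other expressed genes. An shRNA acts on finished transcripts, so newly made RNA is no check of the knockdown, and these libraries are named by their label.

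The promoters of 4 members are shown because their genes moved furthest, or carry the ATPase itself, in the comparison of the shRNA libraries: Smarca4, Smarcc1 and Arid1a were higher and Actl6a was lower. Each is the 250 bases before a transcription start in RefSeq (GRCm38.p6), 5′ to 3′ on the gene's own strand. The start is that of RefSeq, which differs from the first base of the deposited gene model for Smarcc1 and Actl6a. Capitals mark GC boxes (GGGCGG) and NRF1 motifs (GCGCATGC) found on either strand. The windows are chr9:21615919-21616168 (Smarca4, plus strand), chr9:110131774-110132023 (Smarcc1, plus), chr4:133756770-133757019 (Arid1a, minus) and chr3:32708296-32708545 (Actl6a, plus).

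Smarca4: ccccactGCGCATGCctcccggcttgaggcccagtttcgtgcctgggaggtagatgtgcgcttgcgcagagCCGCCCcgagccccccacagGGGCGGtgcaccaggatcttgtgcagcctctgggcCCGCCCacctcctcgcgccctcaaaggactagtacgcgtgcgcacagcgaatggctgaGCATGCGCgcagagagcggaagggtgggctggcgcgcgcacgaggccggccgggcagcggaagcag

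Smarcc1: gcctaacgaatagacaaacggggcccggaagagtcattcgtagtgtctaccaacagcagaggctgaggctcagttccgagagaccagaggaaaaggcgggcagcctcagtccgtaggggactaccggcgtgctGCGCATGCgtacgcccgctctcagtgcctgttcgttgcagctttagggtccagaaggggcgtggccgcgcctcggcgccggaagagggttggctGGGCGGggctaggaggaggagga

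Arid1a: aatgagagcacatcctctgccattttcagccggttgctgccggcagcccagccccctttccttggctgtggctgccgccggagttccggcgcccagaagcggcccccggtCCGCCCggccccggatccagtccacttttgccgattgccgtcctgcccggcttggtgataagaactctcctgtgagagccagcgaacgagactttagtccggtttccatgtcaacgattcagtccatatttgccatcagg

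Actl6a: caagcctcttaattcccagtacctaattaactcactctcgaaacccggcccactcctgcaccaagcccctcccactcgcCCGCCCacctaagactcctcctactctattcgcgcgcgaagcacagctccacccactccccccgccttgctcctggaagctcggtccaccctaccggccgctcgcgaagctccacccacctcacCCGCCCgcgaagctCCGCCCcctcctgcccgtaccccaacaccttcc

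RefSeq gave such a window for 9 of the 10 members, and 2 for Arid1a, which makes 10 windows. For Arid1a the window shown is the one that borders the deposited gene model, with 1 GC box and 18 CpG dinucleotides. The other, chr4:133753986-133754235, holds 7 GC boxes and 33 CpG dinucleotides. A GC box was present in 9 of these 10 windows, where 32.7% of all 32851 windows of that length hold it. The Smarca4 window holds 3 GC boxes and 2 NRF1 motifs and the Smarcc1 window 1 of each, while the other 8 hold no NRF1 motif. The NRF1 motif occurs in 2.26% of all windows. No TATA box (TATAAA) was found in the 10, against 12.4% of all windows, and they contain 17 to 33 CpG dinucleotides where the median window has 6. GC box and NRF1 matches did not overlap. GC boxes thus occur in windows of genes that were higher and of the gene that was lower in the comparison below, and these matches describe letters only.

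The ATPase genes were transcribed very unequally. Levels are given as TMM-scaled CPM per kb of exon, that is library-scaled counts relative to the library size and exon length, which allows genes of different length to be set side by side. Smarca4 (chr9:21616169-21704230, plus strand) stood at 5.96 and 8.01 in the DMSO libraries, 8.35 and 6.82 with BRM014, 10.4 and 7.44 with the scrambled shRNA and 13.2 and 14.0 in the libraries labelled Chd4 shRNA. Only the last group lay apart from the other 3, which overlapped in sequence. Smarca2 (chr19:26605050-26778322, plus), which encodes the alternative ATPase BRM, stood at 0.286 and 0.223, 0.229 and 0.166, 0.290 and 0.348, and 1.43 and 1.72 in the same order of groups. Its counts were 66, 56, 41, 42, 36, 44, 126 and 148. Averaged over the 8 libraries this was 1.47-fold above background, short of the 10-fold required of an expressed gene. In the libraries labelled Chd4 shRNA the background alone came to 99.8 counts, or 72.8% of the Smarca2 count. Smarca2 was 2.30 ± 0.20 higher there on the log2 scale in the edgeR fit of all 35426 genes that passed the low-count filter, where the median gene was 1.75 higher. Smarca4 made up 96.1% to 99.7% of the background-subtracted level of the ATPase pair in every library.

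**Figure D1:**
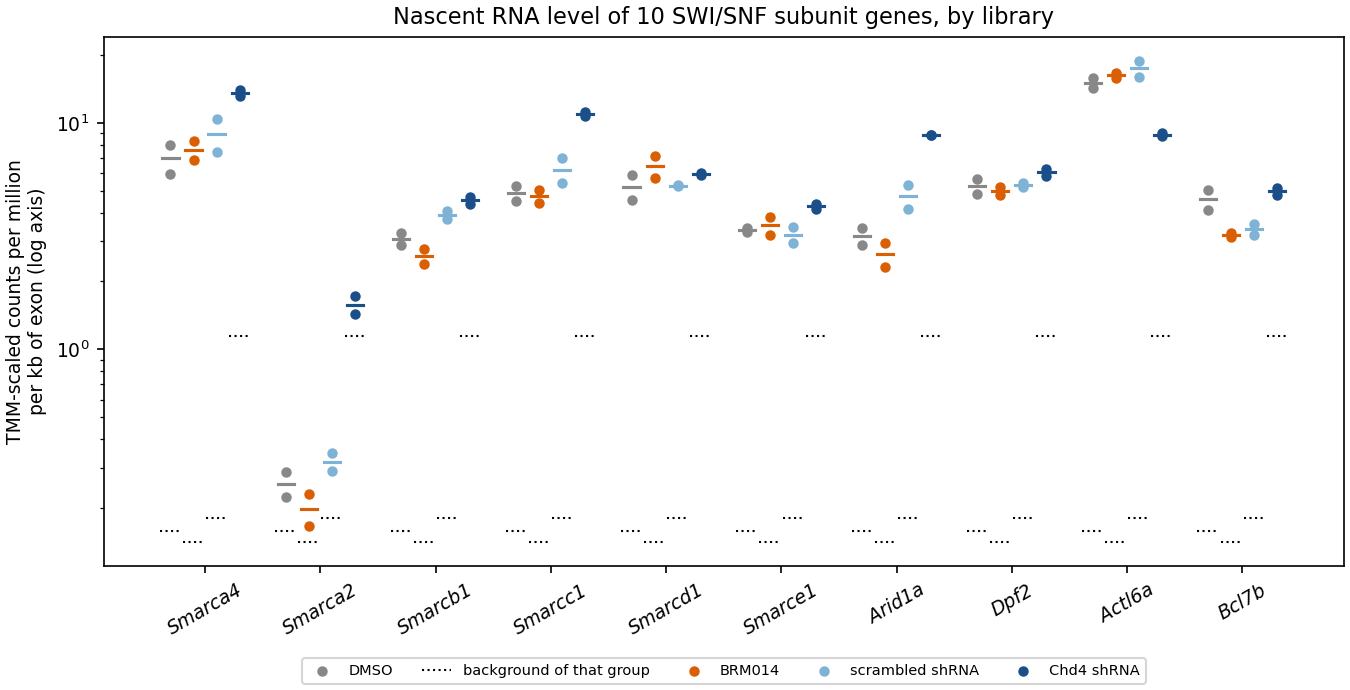
Nascent RNA levels of the 10 subunit genes in TMM-scaled CPM per kb of exon (log axis), with 1 point per library, a bar at the group mean and a dotted line at the background of the group. Smarca2 lies near the background in each group, and Actl6a is the only gene with its lowest points in the libraries labelled Chd4 shRNA.

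Among the 9 expressed members the order of levels was similar in 3 groups and different in the fourth. Actl6a, an actin-related protein of the ATPase module, had the highest mean level in DMSO (15.0 ± 1.07, SD, n = 2), BRM014 (16.2 ± 0.554) and scrambled shRNA (17.4 ± 1.960), followed by Smarca4 (6.98 ± 1.45, 7.59 ± 1.08 and 8.93 ± 2.10). In the libraries labelled Chd4 shRNA, Smarca4 (13.6 ± 0.604) came first, then Smarcc1 (10.9 ± 0.376), with Arid1a (8.87 ± 0.000715) and Actl6a (8.86 ± 0.1903) side by side. Smarcb1 and Arid1a were the lowest expressed members in DMSO, at 3.06 ± 0.265 and 3.17 ± 0.397. Dpf2, Smarcd1 and Smarcc1 stood between 4.90 and 5.24 there, with libraries that overlapped, so their order is not resolved.

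Of the 10 members, 8 had their highest mean in the libraries labelled Chd4 shRNA, the exceptions being Smarcd1 and Actl6a. The 8 include Smarca2, whose count in those libraries was 72.8% background. How many of all expressed genes have their highest mean there was not counted. The pairs of groups also differ in virus, puromycin and time, which a ranking over 4 groups cannot tell apart. Smarcb1 was the member whose 4 groups were all apart, at 4.54 ± 0.199 in the libraries labelled Chd4 shRNA, 3.93 ± 0.231 with the scrambled shRNA, 3.06 ± 0.265 in DMSO and 2.57 ± 0.274 with BRM014. Smarcd1 was highest with BRM014 (6.43 ± 1.05), whose libraries overlapped those labelled Chd4 shRNA (5.95 ± 0.0791). Dpf2 ranged only from 5.00 ± 0.308 with BRM014 to 6.04 ± 0.323, and its 3 lower groups overlapped. Smarce1 likewise stood at 4.28 ± 0.166 in the libraries labelled Chd4 shRNA and between 3.21 and 3.53 in the other 3 groups, which overlapped. With the background of each group subtracted, 6 of the 10 members kept the same highest group. Smarcb1 and Dpf2 were then highest with the scrambled shRNA, Smarce1 with BRM014 and Bcl7b in DMSO.

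After 3 h of BRM014, 1 of the 9 expressed members was called. Bcl7b, a small accessory subunit, was lower, and the other 8 expressed members were not called. On simulated counts, 42 of 69 changes of 1.5-fold were recovered in this comparison, so an uncalled member is not shown to be unchanged. By edgeR's quasi-likelihood test, with a call at a Benjamini-Hochberg adjusted p under 0.05 over all 8017 genes, 0 of 9 members rose and 1 fell. Of all expressed genes, 7.15% were called in either direction (2.46% higher and 4.69% lower). At an unadjusted p under 0.05 the count was also 1 of 9, and DESeq2 called 0 higher and 0 lower. The median change of the 9 members was -0.05 on the log2 scale and that of all expressed genes -0.005. The libraries of the groups did not overlap for 1 member that was higher (Actl6a) and 2 that were lower (Smarcb1 and Bcl7b), where 23.6% and 24.6% of expressed genes separate that way.

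The target of the inhibitor, Smarca4, had 624 and 913 counts in DMSO and 678 and 782 with BRM014. Their levels overlapped. The log2 change was 0.11 ± 0.16 (SE, adjusted p = 0.757 by edgeR), and it moved between -0.08 and 0.35 as each library was left out in turn. Smarca2 was 0.39 ± 0.23 lower (adjusted p = 0.478 by edgeR, in the fit of all genes past the low-count filter), from counts that were 61.9% background in DMSO and 74.0% with BRM014.

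Core scaffold subunits were not called with BRM014. Smarcb1, which contacts the nucleosome acidic patch, had 369 and 454 counts in DMSO and 275 and 334 with BRM014, a log2 change of -0.26 ± 0.13 (adjusted p = 0.275 by edgeR). Smarcc1, a scaffold on which the complex assembles, changed by -0.05 ± 0.14 and Smarce1, a core subunit with an HMG domain, by 0.06 ± 0.13. Smarcd1, which bridges the complex to transcription factors, had 296 and 418 counts in DMSO and 362 and 405 with BRM014, and a change of 0.29 ± 0.14 (adjusted p = 0.258 by edgeR). Each library moved this value by more than 1.5 times when left out. Dropping DMSO r1 gave 0.11 and dropping BRM014 r1 gave 0.14, against 0.48 when BRM014 r2 was dropped and 0.49 when DMSO r2 was. It was called only in the last of these fits (adjusted p = 0.0165 by edgeR).

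Of the other members, Arid1a, the large DNA-binding subunit, stood at 2.89 and 3.45 per kb in DMSO and 2.95 and 2.31 with BRM014. The groups overlapped, and the log2 change was -0.28 ± 0.15 (adjusted p = 0.319 by edgeR). Dpf2, which reads acetylated histone tails, changed by -0.07 ± 0.13. Actl6a was at 14.2 and 15.7 in DMSO and 16.6 and 15.8 with BRM014, a log2 change of 0.12 ± 0.13 (adjusted p = 0.666 by edgeR).

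Bcl7b (chr5:135168283-135181855, plus) had 196 and 175 counts in DMSO and 98 and 133 with BRM014, or levels of 5.04 and 4.13 against 3.25 and 3.12. Both BRM014 libraries lay below both controls. It fell by 0.52 ± 0.15 on the log2 scale, to 0.695-fold (adjusted p = 0.0299 by edgeR). This call rests on few counts. It was lost without DMSO r1 (adjusted p = 0.131), without BRM014 r1 (0.143) and without BRM014 r2 (0.301), all by edgeR, and under DESeq2 (0.212).

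**Figure D2:**
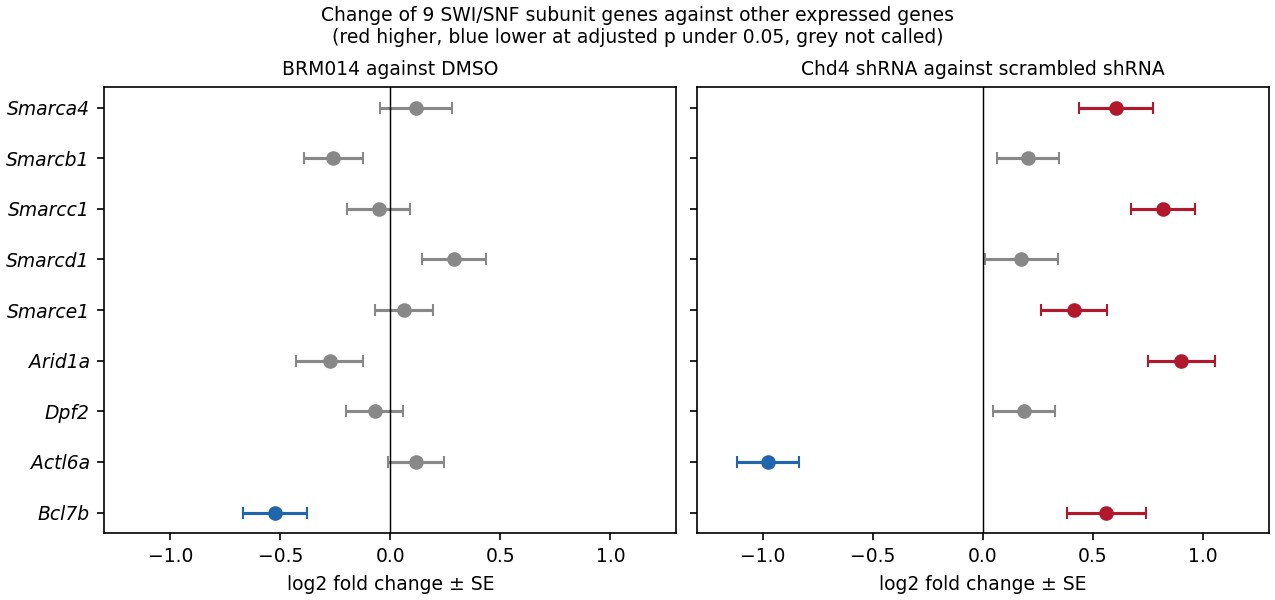
Log2 fold changes with SE for the 9 expressed members in both comparisons, relative to other expressed genes, from 2 libraries a group. With BRM014 only Bcl7b is called, at -0.52, and in the libraries labelled Chd4 shRNA the values run from -0.97 for Actl6a to 0.90 for Arid1a.

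In the libraries labelled Chd4 shRNA, 5 of the 9 expressed members were transcribed more, and Actl6a less, relative to other expressed genes. Arid1a, Smarcc1, Smarca4, Bcl7b and Smarce1 were higher, between 1.33-fold and 1.87-fold, and Actl6a was 0.509-fold. By edgeR, 5 of 9 members rose and 1 fell, while 40.6% of all expressed genes were called (20.4% higher and 20.2% lower). The 9 members had a median log2 change of 0.41 against 0.005 for all expressed genes. Libraries did not overlap for 8 members that were higher and 1 that was lower, where 37.3% and 36.8% of expressed genes separate so. DESeq2 called 3 higher (Arid1a, Smarcc1 and Smarca4) and 1 lower.

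These directions are relative to the other expressed genes. When TMM scaling was run over all 35426 genes, background included, the median expressed gene was at -1.34 and all 9 members were called lower, as were 7496 of the 8017 genes, so the sign of the 8 positive members flips under that scaling. With plain sums of the ERCC spike-in RNAs, which were added per cell number, the median expressed gene was at 0.59, 7 members were called higher, as were 2809 of the 8017 genes (65 were called lower), and Actl6a was -0.38 and not called. Actl6a thus kept the lowest value of the 9 and a negative sign on each scale, but its call was lost on all 4 ERCC scales. With genes from 3-fold above background in the fit, Arid1a (0.53) and Smarcc1 (0.45) were still called, and Smarca4 (0.24), Bcl7b (0.19) and Smarce1 (0.04) were not. Smarcb1 (-0.17), Smarcd1 (-0.20) and Dpf2 (-0.19) turned negative in that fit and were not called.

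**Figure D3:**
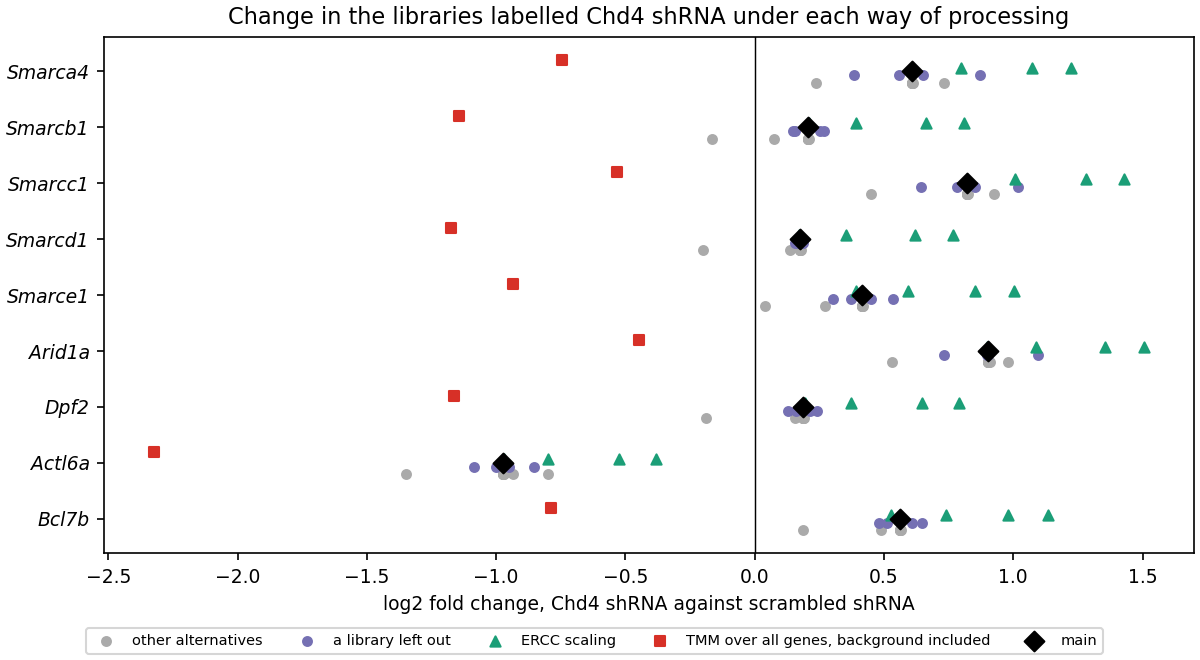
Log2 fold change of the 9 expressed members in the libraries labelled Chd4 shRNA against scrambled shRNA under each way of processing (main value as a diamond, a library left out in purple, ERCC scaling in green, TMM over all genes in red, others grey). Actl6a stays below 0 throughout, from -2.32 to -0.38, and the other 8 lie below 0 with TMM over all genes. Smarcb1, Smarcd1 and Dpf2 also lie below 0 with genes from 3-fold above background.

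Smarca4 had 587 and 427 counts with the scrambled shRNA and 528 and 548 in the libraries labelled Chd4 shRNA, which were sequenced less deeply. The corresponding levels were 10.4 and 7.44 against 13.2 and 14.0. It was higher by 0.61 ± 0.17 on the log2 scale (adjusted p = 0.00672 by edgeR), and background accounted for 8.42% of its count in these libraries. The scrambled library r3 mattered for the call: without it the change was 0.39 (adjusted p = 0.129 by edgeR).

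Of the core subunits, Smarcc1 (chr9:110117708-110240178, plus) stood out. Its counts were 478 and 375 with the scrambled shRNA and 518 and 530 in the libraries labelled Chd4 shRNA, and its levels 7.01 and 5.40 against 10.7 and 11.2. It rose by 0.82 ± 0.15 on the log2 scale, or 1.76-fold (adjusted p = 0.000193 by edgeR), and passed without each of the 4 libraries in turn. With each library's background subtracted it was 0.92 (adjusted p = 5.45e-05 by edgeR). Smarce1 (chr11:99209047-99231017, minus) had 201 and 174 counts against 181 and 167 and was called higher by 0.41 ± 0.15 (adjusted p = 0.0319 by edgeR). The call was kept without scrambled r1 and lost without scrambled r3 (0.30, adjusted p = 0.233), Chd4 shRNA r1 (0.37, 0.161) or Chd4 shRNA r4 (0.45, 0.0830), all by edgeR. Background made up 26.7% of its count in the libraries labelled Chd4 shRNA, the largest share of any expressed member, and with background subtracted it was at 0.27 (adjusted p = 0.199 by edgeR).

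Smarcb1 (chr10:75896769-75921617, minus) and Smarcd1 (chr15:99702129-99713991, plus) were not called, at 0.21 ± 0.14 and 0.18 ± 0.17. Their counts were 283 and 265 against 216 and 224, and 184 and 189 against 147 and 146. Background was 25.2% and 19.2% of these counts in the libraries labelled Chd4 shRNA. Smarcd1 shares 252 bases with Gm17241, a gene on the opposite strand with a mean of 2690 counts against 268 for Smarcd1. The strand counted is not stated, so reads from the shared stretch cannot be told apart.

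Arid1a (chr4:133679008-133756769, minus) had the largest rise of the 9 expressed members. It had 533 and 422 counts with the scrambled shRNA and 630 and 614 in the libraries labelled Chd4 shRNA, so that its raw counts were higher even in libraries with fewer counts in all. Its levels were 5.33 and 4.15 against 8.87 and 8.87. The log2 change was 0.90 ± 0.15, or 1.87-fold (adjusted p = 0.000111 by edgeR), and 0.98 with background subtracted. It passed without each of the 4 libraries in turn, at 0.73 to 1.10. Dpf2 (chr19:5896516-5913010, minus), which joins the complex with Arid1a, was not called, at 0.19 ± 0.14, from 306 and 300 counts against 234 and 246.

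Actl6a (chr3:32706298-32726973, plus) moved the other way. Its counts were 542 and 647 with the scrambled shRNA and 210 and 211 in the libraries labelled Chd4 shRNA, and its levels 16.02 and 18.8 against 8.73 and 8.999. Both libraries lay below all 6 others. It fell by 0.97 ± 0.14 on the log2 scale (adjusted p = 2.40e-05 by edgeR), was called without each library in turn (-1.08 to -0.85) and was -0.94 with background subtracted. Actl6a shares 1577 bases with Mrpl47, a mitochondrial ribosomal protein gene on the opposite strand with a similar mean count (886 against 685). Mrpl47 had 618 and 728 counts against 319 and 324 and also fell, by 0.54 ± 0.13 (adjusted p = 0.00302 by edgeR), and the share of reads counted for both was not tested.

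Bcl7b was called higher here, by 0.56 ± 0.18 on the log2 scale (adjusted p = 0.0170 by edgeR), from 75 and 68 counts against 77 and 70. Background made up 22.9% of the count in the libraries labelled Chd4 shRNA. The call was lost with background subtracted (0.49, adjusted p = 0.0558), under DESeq2 (0.57, adjusted p = 0.0617) and without 3 of the 4 libraries.

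Both effects were compared in the same edgeR fit, as the BRM014 effect minus the effect in the libraries labelled Chd4 shRNA. Of the 9 members 4 differed, 1 with a higher and 3 with a lower value, where 30.8% of expressed genes differed (14.5% higher and 16.4% lower). Actl6a had 0.12 with BRM014 and -0.97 with the shRNA, a difference of 1.09 ± 0.19 (adjusted p = 0.000255 by edgeR). Arid1a differed by -1.18 ± 0.22 (adjusted p = 0.000389), Bcl7b by -1.09 ± 0.23 (adjusted p = 0.00144) and Smarcc1 by -0.87 ± 0.20 (adjusted p = 0.00305), again by edgeR. These differences also depend on the scaling. With TMM over all genes, where 7185 genes were called, Arid1a turned to 0.24 and Bcl7b to 0.33, both uncalled, and Smarcc1 to 0.55 and called. The Actl6a call was lost on all 4 ERCC scales (0.50 to 1.35), that of Smarcc1 on 3 of them and those of Arid1a and Bcl7b on 2. With genes from 3-fold above background Smarcc1 was at -0.47 and not called (adjusted p = 0.0598 by edgeR). For Smarca4 the difference was -0.49 ± 0.23 and was not called (adjusted p = 0.115 by edgeR).

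The wider complex was read from 21 further subunit genes, of which 6 were in the expressed set (Smarcd2, Brd7, Phf10, Actb, Bcl7c and Ss18). With BRM014, edgeR called 0 of 6 in either direction, 0 also had an unadjusted p under 0.05, and DESeq2 called 0. In the libraries labelled Chd4 shRNA 2 of 6 rose and 0 fell, where 20.4% of all expressed genes were called higher and 20.2% lower, and the median change of the 6 was 0.09. The 2 were Brd7 and Phf10, and with TMM over all genes both were negative (-0.67 and -0.62). Brd7, a bromodomain subunit of PBAF, a form of the complex with Pbrm1 and Arid2, was higher by 0.68 ± 0.15 (adjusted p = 0.00144 by edgeR). With genes from 3-fold above background it was higher by 0.31 and uncalled. Phf10, a PHD finger subunit of PBAF, was higher by 0.73 ± 0.15 (adjusted p = 0.000512 by edgeR). Phf10 overlaps 1600012H06Rik on the opposite strand over 14562 bases. Smarcd2 (-0.10 ± 0.16), Bcl7c (0.06 ± 0.14), Ss18 (0.12 ± 0.15) and Actb (-0.11 ± 0.16) were not called. The other 15 lay below 10-fold over background. Among them Bicra, a subunit of non-canonical BAF, was called lower with BRM014, by 0.82 ± 0.20 (adjusted p = 0.0184 by edgeR, in the fit of all genes past the low-count filter). In that fit 2.09% of genes were called lower. Background made up 22.7% of the Bicra count in DMSO and 36.7% with BRM014. In the libraries labelled Chd4 shRNA the same fit put Bicra 1.69 higher, where the median gene was 1.75 higher. All of these 15 genes but Smarcd3 were called higher there, as were 26558 of 35426 genes.

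Within 7 families of paralogous subunits, background-subtracted shares of nascent RNA per kb stayed within a few points in 3 and moved further in the other 4, without a test. This split depends on the subtraction. With background subtracted, the ATPase pair was steady as given above. Without subtraction, Smarca4 was 90.2% and 89.1% of that pair in the libraries labelled Chd4 shRNA and 95.4% to 97.6% in the others. Background-subtracted, Smarcc1 made up 70.9% to 76.0% of its pair with Smarcc2 over the 8 libraries. Smarcd1 and Smarcd2 were near parity, at 40.5% to 51.4% and 40.0% to 42.6%. Smarcd3 was at 14.04% and 15.8% in DMSO and 10.04% and 10.5% with BRM014. It was at 15.2% and 17.97% with the scrambled shRNA and 8.21% and 8.46% in the libraries labelled Chd4 shRNA. In the latter, background made up 59.2% of the Smarcd3 count. Without subtraction its share there was 14.7% and 15.2%, against 15.9% and 18.7% with the scrambled shRNA. Arid1a took 73.4% to 76.3% of its pair with Arid1b in the DMSO and BRM014 libraries, 79.4% and 81.4% in the scrambled ones and 83.9% and 85.6% in those labelled Chd4 shRNA. The 4 shRNA libraries all lay above the other 4. Without subtraction, Arid1a was 78.1% and 78.9% in the scrambled libraries and 77.4% and 78.1% in those labelled Chd4 shRNA. The step between the shRNA groups was thus seen only with background subtracted. Background made up 45.1% of the Arid1b count in the libraries labelled Chd4 shRNA. Dpf2 was 90.1% to 95.7% of its family in 6 libraries and 74.8% and 77.2% in those labelled Chd4 shRNA, where the mean levels of its paralogs Dpf1 (2.21) and Dpf3 (1.63) stood beside a background of 1.14. Actl6a was 97.5% to 100% of its pair with the neuronal Actl6b, the third family within a few points. Levels below background were set to 0, however. That held for Actl6b in every library but Chd4 shRNA r1, which fixed the share of Actl6a at 100%. As counted, Actl6a was 87.1% and 90.6% of the pair in the libraries labelled Chd4 shRNA and 99.1% to 99.6% in the others. Bcl7b was 47.4% and 52.9% of its family with Bcl7a and Bcl7c in DMSO and 42.8% to 45.3% in the BRM014 and scrambled libraries. It was 55.1% and 55.6% in those labelled Chd4 shRNA. Without subtraction it was 48.7% and 47.5% there, 44.6% and 42.7% in the scrambled libraries and 51.9% and 46.7% in DMSO.

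**Figure D4:**
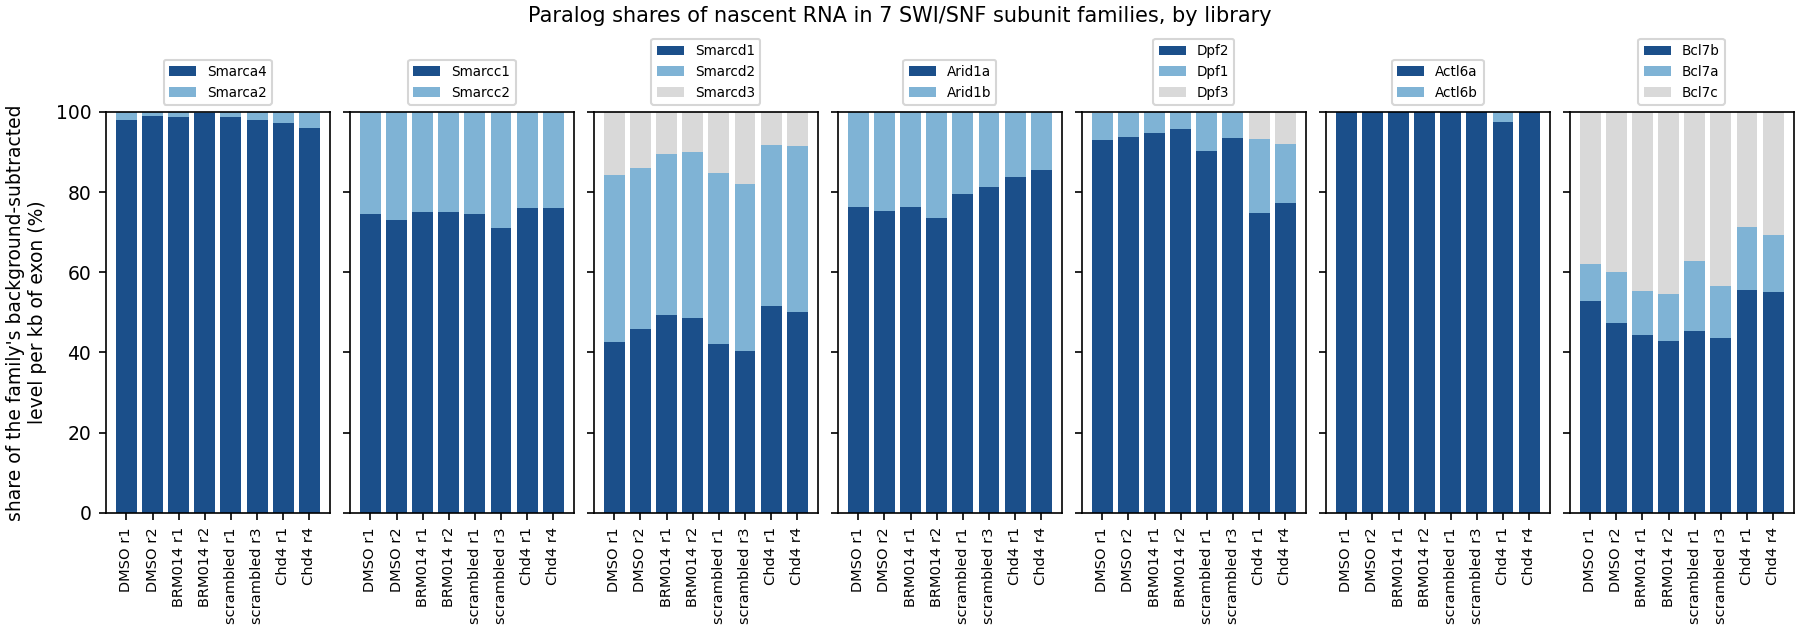
Share of each paralog in the background-subtracted level per kb of exon of 7 subunit families (%), with 1 bar per library. Smarca4, Smarcc1, Arid1a, Dpf2 and Actl6a each hold most of their family, and Smarcd1 and Smarcd2 are near parity.

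Across the 8 libraries, the genes whose scaled log2 counts most resembled Smarca4 were Rdx (Pearson r = 0.995), Myh9 (0.994), Nf2 (0.994), Ddx19b (0.993) and Amotl2 (0.992), out of 5792 ranked. Among members, Smarcc1 (0.968) and Arid1a (0.930) were closest and Actl6a was opposite (-0.772). These values share the 8 libraries and their 4 groups and are a description only. Over all expressed genes, the change was weakly related to gene length in both comparisons, and in the libraries labelled Chd4 shRNA more strongly, and inversely, to the fold over background. Smarca4, Smarcc1, Arid1a and Smarcb1 belong to the longest quartile of expressed genes (genomic span above 24.5 kb), with a median change of 0.20 between the shRNA groups, and the other 5 to the next quartile, at -0.07. Over 7790 expressed genes with a span, Spearman's rho between span and the change was 0.108 in the libraries labelled Chd4 shRNA and 0.146 with BRM014, and over the 9 members 0.70 and -0.12. Between fold over background and the change it was -0.307 and -0.03 over all 8017 genes, and -0.15 and 0.63 over the 9 members. The part of length or of distance from background in the results was not tested.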

How the data were processed

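The authors deposited gene counts of mm10 for 8 nascent RNA libraries and counts for 92 ERCC RNAs. Per the submitters' processing notes, Trim Galore 0.6.4, STAR 2.7.1a, featureCounts and edgeR 3.32.1 were used. The strand counted and the treatment of multiply aligned reads are not given in the sources used here. The columns r3 (scrambled) and r4 (Chd4 shRNA) match no sample title and were placed by group name. The design text calls the libraries biological duplicates.

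All 8 libraries were fitted together with edgeR 4.0.16 (R 4.3.3, quasi-likelihood F test, group only), after TMM scaling, on 8017 genes that passed the default low-count filter and had a mean count at least 10-fold above the receptor background per kb of exon (1434 genes, 5330 kb). The low-count filter was added to the planned design. P-values were adjusted over all 8017 genes. With 2 against 2, an exact permutation test cannot go below 0.333. The members and lists were chosen with earlier results of these data known. Changes are given for all members, the other subunits of the expressed set and Bicra. Paralogs below the expressed set are given by share or level only, and further subunits called in the fit of all genes are not given singly. The 5 genes most like Smarca4 are named as well. DESeq2 1.42.0, other scalings, filters and left-out libraries were the alternatives. The fits were tested on simulated data. The 40 chromatin samples were not analysed here.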

Additional observations from a re-analysis of the deposited data

Results flagged for a closer look

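The BRM014 effect differed from the effect in the libraries labelled Chd4 shRNA for 5 of the 15 expressed subunit genes, by the edgeR test of the difference itself. Of all 8017 expressed genes, 30.8% differed, which is a similar share. The calls depend on the scaling: Actl6a was not called on the ERCC scales. With TMM over all genes Arid1a, Bcl7b, Smarcc1 and Phf10 turned positive. On the log2 scale, the BRM014 effect minus the shRNA effect was 1.09 for Actl6a (adjusted p = 0.000255), -1.18 for Arid1a (0.000389), -1.09 for Bcl7b (0.00144), -0.87 for Smarcc1 (0.00305) and -0.55 for Phf10 (0.0345). The differences of Actl6a, Arid1a, Bcl7b and Smarcc1 were called without each of the 8 libraries in turn, and that of Phf10 was lost without 7 of them.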

How the results depend on the processing

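With BRM014 against DMSO, 0 members were higher and 1 lower (197 and 376 of all genes). The 1 lower member, Bcl7b, was lost (0 members lower) under DESeq2 (96 genes higher and 207 lower), with genes at least 30-fold above background (52 and 203, with 1 member tested), with all genes past the low-count filter (742 lower), without that filter, with TMM over all genes (412 higher) and with a log2 change of at least 1 (16 and 120). It was also lost with plain ERCC sums (13 and 93), TMM over 92 ERCC RNAs (0 and 0), TMM over 6 abundant ERCC RNAs (8 and 60) and DESeq2 on ERCC factors (12 and 17). It stayed at 3-fold above background (498 and 803). With each library left out, members higher were 0 to 1, members lower 0 to 1, genes higher 85 to 762 and genes lower 148 to 671. The most came without DMSO r2 and the fewest higher without BRM014 r1.

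In the libraries labelled Chd4 shRNA, 5 members higher and 1 lower became 3 higher with DESeq2 and with background subtracted. They became 2 higher at 3-fold above background (3889 genes higher and 3873 lower) and 0 at 30-fold, where Actl6a alone of the members was tested (889 and 828). With a log2 change of at least 1 there were 0 higher and 0 lower (317 and 259 genes). All genes past the low-count filter gave 26558 genes higher and no filter 32352. TMM over all genes gave 0 members higher and 9 lower (52 and 7496 genes). Plain ERCC sums gave 0 lower (2809 and 65 genes), TMM over 6 ERCC RNAs 0 lower (58 genes lower), TMM over 92 ERCC RNAs 0 and 0 (61 and 6) and DESeq2 on ERCC factors 0 and 0 (194 and 219). With each library left out, members higher were 2 to 5, fewest without scrambled r3, members lower 1 to 1, genes higher 1064 to 1467 and genes lower 1046 to 1345. TMM over all genes turned Smarca4 to -0.74, Smarcb1 to -1.14, Smarcc1 to -0.53, Smarcd1 to -1.18, Smarce1 to -0.94, Arid1a to -0.45, Dpf2 to -1.16, Bcl7b to -0.79, Brd7 to -0.67, Phf10 to -0.62, Bcl7c to -1.29 and Ss18 to -1.23.

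For the difference of both effects, 1 member higher and 3 lower (2473 genes) became 2 higher at 3-fold above background (6517 genes), 0 lower at 30-fold (1383), and 5 lower with all genes past the low-count filter (24325). No filter gave 25032 genes and a log2 change of at least 1 gave 900. TMM over all genes gave 7 higher and 0 lower (7185), and turned Smarca4 to 0.93, Smarcb1 to 0.96, Smarcc1 to 0.55, Smarce1 to 1.07, Arid1a to 0.24, Dpf2 to 1.16, Bcl7b to 0.33, Brd7 to 1.01, Phf10 to 0.87 and Bcl7c to 1.24. Plain ERCC sums gave 0 higher (1344), TMM over 6 ERCC RNAs 0 higher (460), TMM over 92 ERCC RNAs 0 and 0 (24) and DESeq2 on ERCC factors 0 and 0 (218). With each library left out, members higher were 1 to 1, members lower 3 to 5, and genes 1611 to 2961. Unless stated, the cause of these shifts was not tested. By mean level, 6 of 10 members kept their highest group with background subtracted.

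The labels do not say whether the replicate numbers of BRM014 and DMSO pair the libraries. The replicate differences of these groups correlated at -0.25 over 8017 genes, which cannot show how the libraries were prepared. With the replicate block, 246 genes were higher and 433 lower, members stayed at 0 and 1, and no call of a member changed. With the numbers crossed, an alternative added after seeing the data, 325 and 453 were called. No paired analysis was possible for the shRNA libraries because their columns share only number 1. Counts were lowest for Smarca2, with 36 to 148 in a library, and for Bcl7b among the expressed members, with 68 to 196. With 2 libraries a group, the lone library of a left-out fit is assumed to vary like the others.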
